A study of Homo sapiens with 2 samples.

Results

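IGF2BP3 binding was examined over 46 genes that build the DNA replication origin and fork, chosen by name from the 20046 protein-coding genes of GENCODE 44. A peak was counted for a gene when it overlapped at least 1 bp of an exon of any of its transcripts on hg38. The data were 2 lists of peaks from LACE-seq of OE-19, an established cell line of esophagogastric junction adenocarcinoma, labelled as replicates 1 and 2 of a single group. In LACE-seq, UV light links RNA to bound protein, and the RNA is pulled down with an antibody, fragmented, reverse transcribed and linearly amplified from the cDNA ends. The labels name no treatment for either replicate, no control library was analysed here, and the labels do not say whether the replicates came from separate cultures. The study asked which mRNAs IGF2BP3 binds and followed the G1-S transition of the cell cycle. Origins are licensed in G1, before it, and copied in S phase, after it.

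Replication starts where the origin recognition complex (ORC) sits on DNA. CDC6 and CDT1 then load the ring of MCM2 to MCM7, which later becomes the fork helicase. The kinase CDC7 with DBF4, together with CDC45 and the GINS subunits, turns the loaded ring into an active helicase, and polymerases, the sliding clamp and ligase copy and join the strands behind it. IGF2BP3 is an oncofetal RNA-binding protein that binds mRNAs and is known for affecting their stability and translation.

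Replicate 1 held 21142 peaks and replicate 2 held 20799. The fold enrichment of a peak, taken from the authors' caller, is the summit signal divided by the local background. Its median was 6.89 in the list of replicate 1 and 7.13 in that of replicate 2. Sequencing depth is unknown, but the summit pileup of every peak follows from its fold enrichment and p-value, and its median was 22 reads in both lists. All 6 epithelial markers examined (EPCAM, KRT8, KRT18, KRT19, CDH1 and ERBB2) had an overlapping pair of peaks. Of 8 immune, fibroblast and endothelial markers, 6 had no peak (PTPRC, CD3E, COL1A2, DCN, PECAM1 and VWF), CD68 had peaks in both lists and COL1A1 had 1 peak in replicate 2. All intervals given are 95% by Wilson's method, and they cover counting error only.

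Of the 46 replication genes, 9 had an overlapping pair of peaks, which is 1 peak in each list sharing at least 1 bp (19.6%, interval 10.7 to 33.2). Over all protein-coding genes the share was 28.0%. The 9 genes were ORC4, ORC5, MCM3, MCM5, DBF4, POLD2, POLE, PCNA and RPA1. Another 4 genes, ORC2, MCM7, RFC2 and RRM2, had peaks in both lists that did not overlap (background 3.64%). A peak in 1 list alone was found for 16 genes (background 13.1%), of which 14 were in replicate 1 (ORC1, MCM2, MCM4, MCM6, MCM10, CDC45, POLD1, POLD3, RFC1, RFC3, RPA2, LIG1, RRM1 and TYMS) and 2 in replicate 2 (ORC3 and GINS1). No peak was found for 17 genes (37.0%, background 55.3%). These were ORC6, CDC6, CDT1, GMNN, CDC7, GINS2, GINS3, GINS4, POLA1, POLA2, PRIM1, PRIM2, POLE2, RFC4, RFC5, RPA3 and FEN1. A gene without a peak may still be bound, and RNA level was not measured here.

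**Figure D1:**
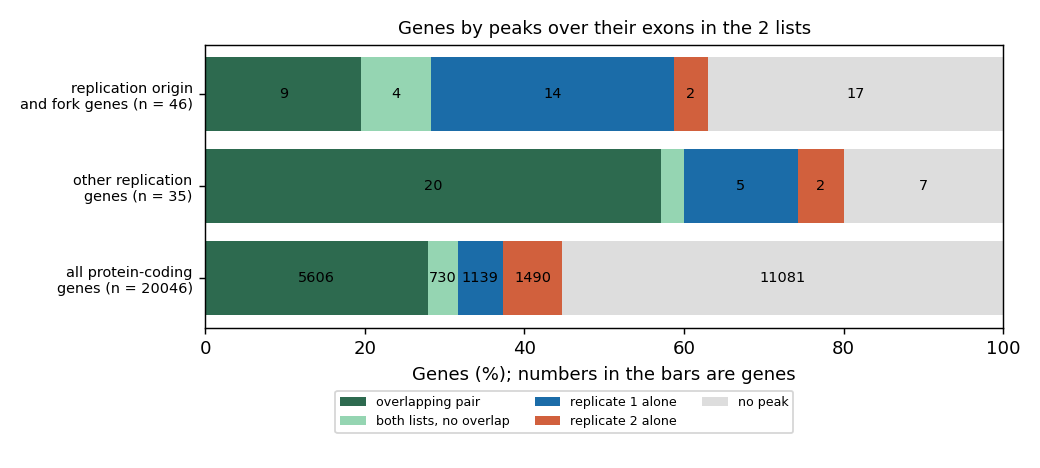
Percent of genes (x axis) by class of peaks over their exons, for the 46 replication origin and fork genes, 35 other replication genes and all 20046 protein-coding genes. Numbers in the bars are genes; among the 46 genes 14 had a peak in replicate 1 alone and 2 in replicate 2 alone, against 1139 and 1490 of all protein-coding genes.

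The lists were uneven over these genes. Replicate 1 had 50 peaks over their exons, in 27 of 46 genes (background 37.3%), and replicate 2 had 23, in 15 of 46 genes (background 39.0%). The mean was 36.5 ± 19.1 peaks (SD, n = 2). Over all protein-coding genes the numbers were 18681 and 19014 peaks. A peak in either list was found for 29 of the 46 genes (background 44.7%). Replicate 1 had more peaks than replicate 2 in 20 of these 29 genes, fewer in 3 (ORC3, MCM7 and GINS1) and as many in 6. Among all 8965 protein-coding genes with a peak, replicate 1 had more in 33.4% and replicate 2 in 37.9%. With 1 library on each side this difference has no replicate check. A tilt to replicate 1 was also found over 35 other replication genes, described below. When the summit itself had to lie in an exon, the replication genes held 33 and 15 peaks.

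Overlap between the lists was counted from each side. Of the 50 peaks of replicate 1, 12 overlapped a peak of replicate 2 (24%, interval 14.3 to 37.4), against 62.3% of all peaks over exons of protein-coding genes. Of the 23 peaks of replicate 2, 13 overlapped a peak of replicate 1 (56.5%, interval 36.8 to 74.4), against 61.4% of all. The 2 counts are the same 12 pairs seen from each side, plus a GINS1 peak of replicate 2 whose partner reached no GINS1 exon. With 23 peaks in replicate 2, most of the 50 in replicate 1 could have no partner over these exons. The share of 24% thus partly restates the uneven counts. The 38 peaks that were found in replicate 1 alone had a median of 20 reads at the summit, and all such peaks of protein-coding genes had 18. With the 10000 peaks of largest −log10 q in each list, 3 replication genes had an overlapping pair (6.52%), against 15.4% of all protein-coding genes.

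The fold enrichment of peaks over replication genes ran from 4.30 to 12 in replicate 1 with a median of 6.81, which was percentile 48.4 of that list, and from 3.90 to 17.3 in replicate 2 with a median of 7.85, percentile 62.0. In replicate 1, 8 of 50 peaks were in the top quartile of fold enrichment of the list, and in replicate 2, 7 of 23. Reads at the summit ranged from 6 to 109 and from 8 to 55. Across the 12 overlapping pairs the fold enrichments had a Spearman's rho of 0.587 and a Pearson's r of 0.641 on the log2 scale, given as a description over peaks, which share libraries and genes.

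**Figure D2:**
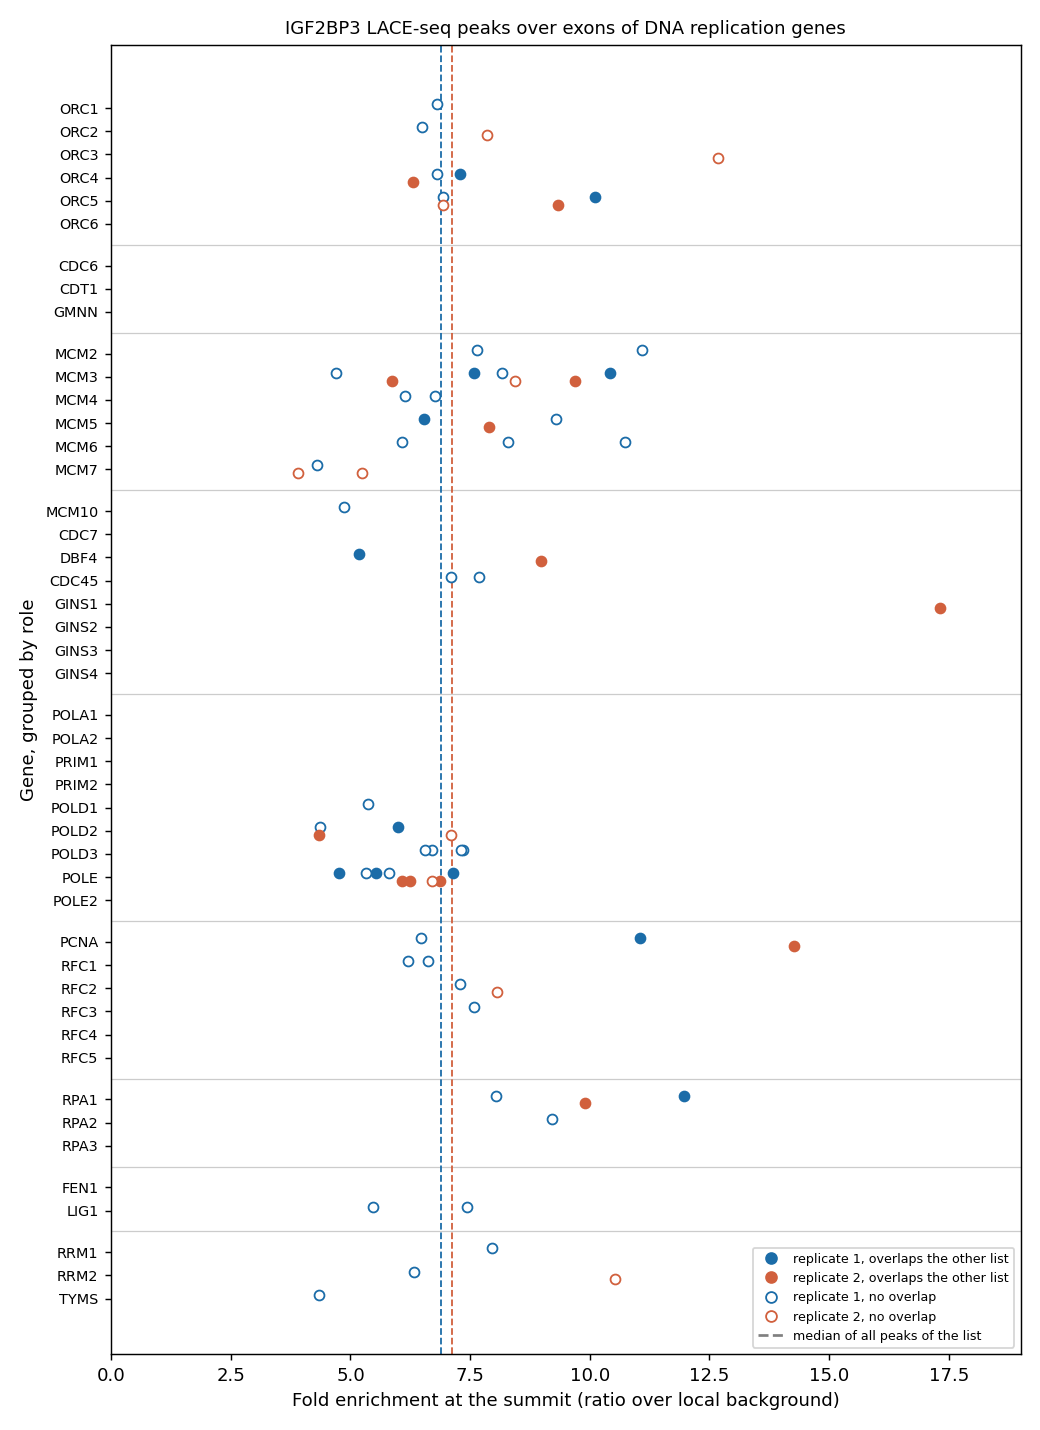
Fold enrichment (x axis, ratio) of each peak over exons of the 46 replication genes (y axis, grouped by role), with replicate 1 in blue and replicate 2 in orange. Filled points overlap a peak of the other list, open points do not, and dashed lines mark the list medians of 6.89 and 7.13; open blue points are the most frequent kind, with 38 of 73 peaks.

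Some of the overlapping pairs lay across the start or the end of the coding sequence, and these short stretches of hg38 are shown because both lists agree on them. In PCNA both peaks covered the start codon, and in MCM3, MCM5, ORC5, POLE and RPA1 both covered the stop codon of the canonical transcript. Each line reads 5′ to 3′ on the gene strand, with the codon in capitals.
PCNA start codon, chr20:5119783-5119811, minus strand: ccactccgccaccATGttcgaggcgcgcc
MCM3 stop codon, chr6:52264575-52264603, minus strand: catcttcctcatcTGAggaggcctcgtct
MCM5 stop codon, chr22:35424240-35424268, plus strand: ctaccgcctcaagTGAgtcgcgccgcctc
ORC5 stop codon, chr7:104126835-104126863, minus strand: gtatgatttcttgTGAaaacaagcttcaa
POLE stop codon, chr12:132624684-132624712, minus strand: acagctgggccatTAGccagccccgggcc
RPA1 stop codon, chr17:1897160-1897188, plus strand: aagtgcattgatgTGAgaggagcagtgcc

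The summits stood at different distances from these codons. Counted along the genome, with minus for upstream, the RPA1 summits of replicates 1 and 2 stood at -11 and -13 nt from the stop codon, and those of MCM3 at 11 and 3 nt. The ORC5 summits stood at 168 and 156 nt, in the 3′ UTR. The MCM5 summits stood at -68 nt and at -139 nt, the latter inside an intron of the canonical transcript. The POLE summits stood at -115 nt, inside an intron, and at -42 nt. The PCNA summits stood at -87 and -101 nt from the start codon.

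The study relates IGF2BP3 binding to the GGAC core of m6A sites, so the windows reaching 50 nt to each side of a summit were searched for it on the gene strand. Both windows of an overlapping pair held the same GGAC in RPA1, ORC5 and POLD2, shown here with the motif in capitals. The region named may come from any transcript, and the POLD2 site lies in an intron of the canonical one.
RPA1, CDS, chr17:1897102-1897131, plus strand: acgtgaagcccgtGGACtacagagagtatg
ORC5, 3′ UTR, chr7:104126637-104126666, minus strand: gactatttaccagGGACcctggagtatttg
POLD2, 5′ UTR, chr7:44122130-44122159, minus strand: tgctttgggggatGGACaggggcagcagga
The RPA1 and POLD2 windows of both lists also held TGGAC, and the RPA1 and POLD2 sites printed here read TGGAC themselves.

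GGAC was found in 34.0% of the windows of replicate 1 (17 of 50, interval 22.4 to 47.8) and in 26.1% of replicate 2 (6 of 23, interval 12.5 to 46.5). Over all peaks on exons of protein-coding genes the shares were 29.5% and 32.5%. TGGAC was found in 18% (9 of 50, interval 9.77 to 30.8) and 13% (3 of 23, interval 4.54 to 32.1), against 10.1% and 10.0% of all. At the middle of the peak in place of the summit, the TGGAC shares of the replication genes were 8.0% and 8.70%. The share of all genes at the middle was not computed, so the summit shares of all are no background for these values. ACACA, a CA-rich sequence of the kind that IGF2BP proteins are known to bind, was found in 1 window of each list (2.0% and 4.35%), in POLE and POLD2, against 10.1% and 8.06% of all windows. A match is a description of the sequence and not a binding site.

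By the position of the summit, 36.0% of the peaks of replicate 1 (18 of 50) and 26.1% of replicate 2 (6 of 23) were in CDS, against 34.2% and 34.1% of all. The 3′ UTR held 10 and 3 summits (10 of 50 and 3 of 23, against 26.3% and 20.8% of all) and the 5′ UTR held 3 in each list (6.0% and 13%, against 7.89% and 13.7%). Introns held 16 and 4 (32.0% and 17.4%, against 24.9% and 22.4%). Of the 16 intronic summits of replicate 1, 15 lay within 150 nt upstream of an exon, against 91.6% of all intronic summits. Exons of transcripts without CDS held 2 and 3 summits, and 1 and 4 summits lay beyond the annotated ends of the gene, before its start.

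The place of the peaks on the canonical transcript was counted in each list. The first exon was reached by 3 of 50 peaks in replicate 1 (6.0%, interval 2.06 to 16.2; DBF4, MCM6 and PCNA) and by 6 of 23 in replicate 2 (26.1%, interval 12.5 to 46.5; ORC3, ORC5, DBF4, PCNA, RFC2 and RRM2). Over all protein-coding genes the shares were 11.8% and 20.8%. Internal exons alone were reached by 28 of 50 peaks (56.0%) and by 9 of 23 (39.1%), against 45.9% and 41.8% of all. The last exon was reached by 18 of 50 (36.0%) and 6 of 23 (26.1%), against 39.4% and 33.9%. Among the peaks that overlapped no peak of the other list, 24 of 38 in replicate 1 (63.2%, interval 47.3 to 76.6) and 5 of 10 in replicate 2 (interval 23.7 to 76.3) were on internal exons alone, against 54.4% and 44% of all such peaks. The first exon was reached by 1 of 38 (2.63%, interval 0.466 to 13.5) and 4 of 10 (interval 16.8 to 68.7), against 5.03% and 28.2%, and all 4 of these intervals include the share of all genes.

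Stop codons of the canonical transcript were covered by 9 of 50 peaks in replicate 1 (18%, interval 9.77 to 30.8) and by 5 of 23 in replicate 2 (21.7%, interval 9.66 to 41.9), against 14.8% and 13.3% of all peaks. Among peaks that overlapped the other list, 5 of 12 (interval 19.3 to 68.0) and 5 of 13 (interval 17.7 to 64.5) covered a stop codon. Of all such peaks 18.3% and 17.6% did. The 2 counts are the same 5 pairs, of MCM3, MCM5, ORC5, POLE and RPA1, seen from each side, and not separate observations. Among peaks that overlapped no peak of the other list, 4 of 38 and 0 of 10 covered one (the latter with an interval up to 27.8%), against 9.17% and 6.35%. Of the exonic summits, 14 of 31 in replicate 1 (45.2%, interval 29.2 to 62.2) and 4 of 12 in replicate 2 (33.3%, interval 13.8 to 60.9) lay within 200 nt of the stop codon of some transcript, against 24.4% and 22.6% of all. When the stop codon of the canonical transcript alone was used, they were 10 of 30 (33.3%) and 4 of 10, against 19.4% and 17.5%.

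**Figure D3:**
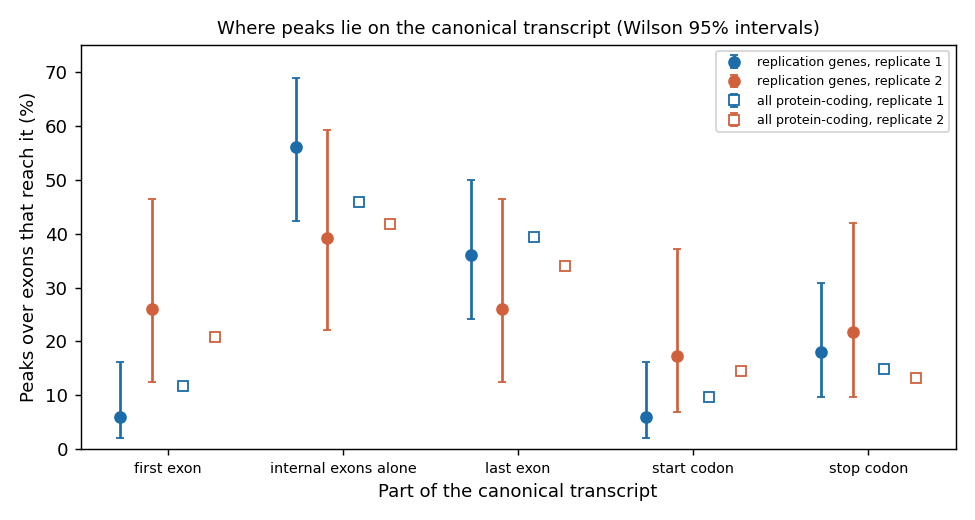
Percent of peaks over exons (y axis) that reach each part of the canonical transcript (x axis), for the replication genes (filled circles) and all protein-coding genes (open squares) in replicates 1 (blue) and 2 (orange), with Wilson 95% intervals. The first exon was reached by 6.0% and 26.1% of the peaks over replication genes, and the intervals are wide because they rest on 50 and 23 peaks.

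ORC is the 6-subunit complex that marks origins, and 5 of its 6 genes had a peak in either list (background 44.7%). ORC5 (chromosome 7, 104126341 to 104208047, minus strand) carried the highest pair of the complex, at the end of the transcript described above. This peak had a fold enrichment of 10.1 with 18 reads in replicate 1 (104126474 to 104126968) and 9.33 with 13 reads in replicate 2 (104126434 to 104126882). ORC5 also had a peak over exon 13 in replicate 1 (fold 6.93) and another at its first exon in replicate 2 (fold 6.92).

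The ORC4 pair, with folds of 7.30 and 6.30, lay at the gene start on exons that are not in the canonical transcript, and exons of MBD5 on the opposite strand lie under it. Since no strand is recorded, which of the genes the reads came from is uncertain there. ORC4 also had a peak over exon 9 in replicate 1 (fold 6.81). ORC2 had a peak over the end of its CDS in replicate 1 (fold 6.49) and a peak 1733 nt past a stop codon in replicate 2 (fold 7.85). The sequence at that second summit occurs in 6 places of the genome, the one such case among the 73 peaks. ORC1 had 1 peak in replicate 1 (fold 6.81). ORC3 had 1 in replicate 2 (fold 12.7) with its summit before the gene start, where an exon of RARS2 on the opposite strand also lies.

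None of the 3 licensing factors had a peak in exons, and 55.3% of all protein-coding genes had none either. CDC6 and CDT1, which load the helicase, and GMNN, the inhibitor of CDT1, were without one in both lists. CDC6 lies on chromosome 17 from 40287879 to 40304657, and its canonical transcript of 4564 nt is longer than those of the other two (2664 nt for CDT1 and 1263 nt for GMNN). Among the 46 genes the number of peaks had a Spearman's rho of 0.274 with the length of the canonical transcript, and 0.257 over all 20046 protein-coding genes, both given as descriptions. Genes without a peak had a median length of 2200 nt, and genes with an overlapping pair 3458 nt.

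All 6 subunits of the helicase ring had a peak in replicate 1 (background 37.3%), with 14 peaks in all. In replicate 2, 3 of them had one (background 39.0%), with 6 peaks. MCM3 (chromosome 6, 52264014 to 52284881, minus strand) had 4 peaks in replicate 1 and 3 in replicate 2. Its last exon carried the widest peaks of the replication genes in both lists, 52264128 to 52264937 in replicate 1 and 52264135 to 52264961 in replicate 2. The folds were 10.4 and 9.69, with 109 and 46 reads at the summit. A pair over exon 3 had folds of 7.58 and 5.86. Peaks at exons 10 and 14 were found in replicate 1 (folds 8.16 and 4.69) and at exon 5 in replicate 2 (fold 8.44).

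MCM5 (chromosome 22, 35400134 to 35425431) had a pair over its last exon with folds of 6.54 and 7.89 and with 18 and 15 reads. A higher peak at exon 12 (fold 9.30) was in replicate 1 alone. MCM2, MCM4 and MCM6 had 2, 2 and 3 peaks in replicate 1 and none in replicate 2. The highest of them was over exon 4 of MCM2, on chromosome 3 from 127604815 to 127605129, with a fold of 11.1 (percentile 90.7 of the list) and 26 reads. The second MCM2 peak (fold 7.65) also lay over an exon of a lncRNA on the opposite strand. The MCM6 peaks, at its start, exon 10 and its end, had folds of 10.7, 6.07 and 8.29. Those of MCM4, at the stop codon and in the 3′ UTR, had folds of 6.15 and 6.76.

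MCM7 had low peaks in both lists that did not overlap. Replicate 1 had 1 over exon 11 (fold 4.30, 46 reads), and replicate 2 had 1 over exons 4 and 5 (fold 5.23, 31 reads) and 1 at exon 13 (fold 3.90, 25 reads). MCM7 hosts the microRNA cluster of miR-106b, miR-93 and miR-25 in an intron. The peak at exon 13, on chromosome 7 from 100093977 to 100094270, covered all 82 bases of the miR-106b hairpin (100093993 to 100094074), and its summit at 100094045 lay within the mature 5p strand. It covered 0 bases of the miR-93 and miR-25 mature strands. The mature miR-106b strands are shown, from RefSeq on GRCh38.p14, with the seed (bases 2 to 8) in capitals.
hsa-miR-106b-5p: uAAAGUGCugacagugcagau
hsa-miR-106b-3p: cCGCACUGuggguacuugcugc
The mRNA, its unspliced precursor and the hairpin cannot be told apart in this peak.

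**Figure D4:**
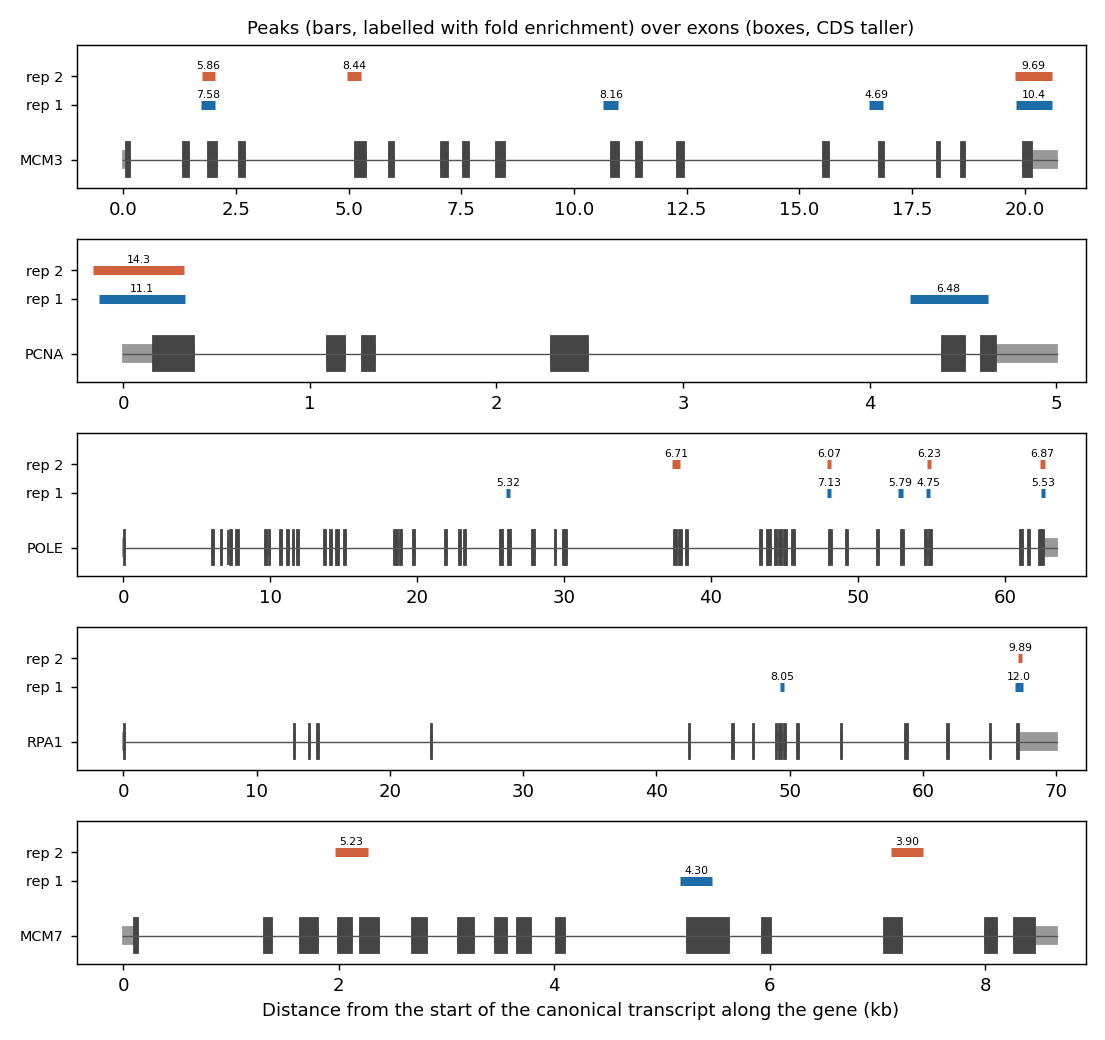
Peaks of replicates 1 (blue) and 2 (orange) on MCM3, PCNA, POLE, RPA1 and MCM7, drawn to scale by distance from the start of the canonical transcript along the gene (kb, x axis), with exons as boxes and CDS taller. The number above each bar is its fold enrichment; the pairs of MCM3 (10.4 and 9.69) and RPA1 (12 and 9.89) lie at the last exon, that of PCNA (11.1 and 14.3) at the first, and the MCM7 peaks do not overlap.

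Of the 8 genes for origin firing, 4 had a peak in either list, which is near the background of 44.7%. DBF4, the activating subunit of the CDC7 kinase, had a pair that reached its first exon, with folds of 5.18 and 8.98 and with 6 and 13 reads. Both summits lay in an intron of the canonical transcript and in the 5′ UTR of another one. An exon of SLC25A40 on the opposite strand lies under both peaks. CDC45, a subunit of the active helicase, had 2 peaks in replicate 1 (folds 7.09 and 7.69). MCM10, an initiation factor, had 1 in its 3′ UTR in replicate 1 (fold 4.87). GINS1 had the highest fold of all 73 peaks, 17.3 with 55 reads, in replicate 2. That summit lay before the gene start, an exon of ABHD12 on the opposite strand lies under the peak, and the overlapping peak of replicate 1 (fold 11.8, 24 reads) did not reach a GINS1 exon. CDC7, GINS2, GINS3 and GINS4 had none.

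Polymerase α and primase, which lay down the primers, had no peak over an exon in any of POLA1, POLA2, PRIM1 and PRIM2 (background 55.3%). The catalytic subunit of polymerase ε, POLE, had the most overlapping pairs of the 46 genes, 3, at exons 40, 45 and 48 to 49 of 49. Their folds were 7.13 and 6.07, 4.75 and 6.23, and 5.53 and 6.87 in replicates 1 and 2. Its canonical transcript of 7823 nt is also the longest of the 9 genes with a pair. POLE peaks without a partner lay at exons 25 and 43 in replicate 1 (folds 5.32 and 5.79) and at exons 30 to 31 in replicate 2 (fold 6.71). POLE2 had no peak. POLD2, an accessory subunit of polymerase δ, had a pair at exon 2 with folds of 6.0 and 4.34, and peaks that did not overlap at exons 7 to 8 in replicate 1 (fold 4.37) and 5 to 6 in replicate 2 (fold 7.11). POLD3 had 4 peaks in replicate 1, of which 2 were in the 3′ UTR (folds 7.35 and 7.31) and 2 at internal exons (folds 6.71 and 6.55), and 0 in replicate 2. POLD1, the catalytic subunit, had 1 in replicate 1 (fold 5.36).

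PCNA, the sliding clamp that holds polymerases on DNA, had the pair that ranked highest by the lower of its percentiles within the lists. It lay over the first exon, on chromosome 20, spanning 5119626 to 5120087 in replicate 1 and 5119632 to 5120119 in replicate 2. The folds were 11.1 and 14.3 (12.7 ± 2.28, SD, n = 2), at percentiles 90.6 and 96.2, with 46 and 33 reads. A second peak over its last exons was in replicate 1 alone (fold 6.48). Of the clamp loader genes, RFC1 had 2 peaks (folds 6.62 and 6.19) and RFC3 had 1 (fold 7.57) in replicate 1. RFC2 had 1 at exon 7 in replicate 1 (fold 7.28) and 1 at its first exon in replicate 2 (fold 8.07), and RFC4 and RFC5 had none.

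RPA1, the large subunit of the single-strand binding protein, had a pair at its stop codon on chromosome 17, from 1896907 to 1897494 and from 1897087 to 1897441. Its folds of 12 and 9.89 (10.9 ± 1.47, SD, n = 2) stood at percentiles 93.4 and 81.4, with 25 and 15 reads. RPA1 also had a peak over exons 10 and 11 in replicate 1 (fold 8.05). RPA2 had 1 peak in its 3′ UTR in replicate 1 (fold 9.21) and RPA3 had none. Of the genes that finish Okazaki fragments, LIG1, the replicative DNA ligase, had 2 peaks over CDS in replicate 1 (folds 5.48 and 7.43) and the flap endonuclease gene FEN1 had none.

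All 3 genes for nucleotide supply had a peak in replicate 1 (background 37.3%) and none had an overlapping pair (background 28.0%). RRM2, the regulated subunit of ribonucleotide reductase, had a peak across its stop codon in replicate 1 (fold 6.32, 17 reads) and a peak in the first exon in replicate 2 (fold 10.5, 21 reads). RRM1, the large subunit, had 1 peak over its last exon (fold 7.97), where RRM1-AS1 lies on the opposite strand. TYMS, which makes thymidylate, had 1 over exon 5 (fold 4.35), where an exon of ENOSF1 lies on the opposite strand. In all, 10 of the 73 peaks, in 8 genes, also lay over an exon of another gene. Without such peaks 7 of the 46 genes (15.2%) and 22.6% of all protein-coding genes had an overlapping pair.

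Beyond exons, 3 of the genes had peaks within their bounds that touched no exon of theirs. POLA1 had a strong pair in an intron on chromosome X (24788695 to 24789285, folds 16.9 and 15.03), and the processed pseudogene EEF1B2P3 lies under it. RPA1 had a wide intronic pair (1857491 to 1858685, folds 10.4 and 10.6) over another processed pseudogene, and RRM2 had 1 intronic peak in replicate 1 (fold 5.56). The RRM2 peak (10184997 to 10185289) lay far past the canonical stop codon, which the peak from 10129065 to 10129686 covered. It fell within RRM2 only because other transcripts extend the gene to 10211725. Reads from a pseudogene and from its parent gene share sequence, so the origin of the first 2 is uncertain.

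A further 35 genes were listed in the same way, with roles at origins, at the fork, in nucleotide supply or otherwise related to DNA replication. Of them, 20 had an overlapping pair (57.1%, background 28.0%) and 1 had peaks in both lists without overlap (background 3.64%). A peak was in replicate 1 alone for 5 and in replicate 2 alone for 2 (background for 1 list alone 13.1%). No peak was found for 7 (background 55.3%), which were DONSON, TIPIN, CHAF1B, RNASEH2A, RNASEH2B, LRWD1 and CHTF18. Together they held 54 peaks in replicate 1 and 38 in replicate 2. Of the 28 with a peak, replicate 1 had more in 17 (60.7%) and replicate 2 in 6 (21.4%), against 33.4% and 37.9% of all genes with a peak. Replicate 1 held 1.42 times the peaks of replicate 2 over these 35 genes. The ratio was 2.17 over the 46 genes and 0.982 over all protein-coding genes. The 35 are related genes chosen with earlier results of these data known, and the cause of the tilt was not tested. CLSPN, the checkpoint mediator claspin, had maximum folds of 13.1 and 9.07, TOP1, a topoisomerase, 7.5 and 16.3, and TOP2A 10.2 and 7.87. The thymidine kinase gene TK1 had 8.10 and 6.04. These genes are examples, all with an overlapping pair. Folds were lower in some others with a pair, such as DBF4B with 3.94 and 4.87. The difference between these 35 genes and the 46 was not tested.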

How the data were processed

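Per the study's methods, reads of IGF2BP3 LACE-seq that did not match pre-rRNA were aligned to hg38 with Bowtie and peaks were called with Piranha, whereas the submitters' processing notes name fastp, HISAT2 and MACS2. Versions are not given in the sources used here. Each deposited list is in narrowPeak layout, was made from 1 replicate, and gives no strand. The deposited fold enrichment is a ratio over local background, and the significance columns deposited beside it hold −log10 p and −log10 q. The pileup at each summit was recovered as the whole number that gives both the fold and the p-value under a Poisson distribution, within 0.01 on the −log10 scale, for all 21142 and 20799 peaks. This layout and these values have the form that MACS2 gives. The lists therefore need not be the Piranha peaks described in the study's methods.

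Peaks were overlapped with GENCODE 44 exons (Python 3.11.15, pandas 2.3.3, scipy 1.17.1). Of 41941 peaks, 41859 lay on reference sequences of the same name and 0 passed their ends. Summits took the first class that any transcript of the gene gave them among CDS, 3′ UTR and 5′ UTR, then exons of transcripts that lack CDS, then introns. The canonical transcript is that of Ensembl. A peak over exons of several protein-coding genes was counted for each. The uniqueness of a summit was checked with its 31-mer on both strands. The code was tested on simulated data. No test between groups was possible with 1 group of 2 samples, so counts are set beside those of all protein-coding genes. The 46 genes and the lists were chosen with earlier results of these data known. Values are given for the helicase, licensing, PCNA, RRM2 and TYMS genes whatever they were, for the highest and most numerous pairs, and for genes with peaks in both lists. Alternatives changed the exons, the overlap, the peaks, the summit position, the windows and the replicates. Coordinates are 1-based.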

Additional observations from a re-analysis of the deposited data

How the results depend on the processing

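No paired analysis was possible because there is a single group. The stop codon of the canonical transcript was an alternative added after the data were seen. Over settings that changed the exons, peaks, overlap, position or windows, 51 values were compared. Of these, 41 moved by less than 1 SD between replicates, or by less than 1.5 times for counts, and 10 moved further. Among the 41, the count of genes with a peak in 1 list alone could not change with the overlap rule. The SD comes from 2 replicates and was wide for the share of peaks overlapping the other list. Large moves of that share were therefore counted among the 41, and the tally is not a measure of robustness. The number of peaks over exons per list was 36.5, and 24 when the summit had to lie in an exon, which drops peaks with summits in introns (16 and 4) or before the gene start (1 and 4). With the 10000 peaks of largest −log10 q it was 13, with 3 genes having an overlapping pair, 30 having no peak and a median fold enrichment of 9.06, all from fewer and stronger peaks. The mean share of intronic summits was 24.7%, and 38.6% when regions were taken from the canonical transcript alone. The share of exonic summits near a stop codon was 39.2%, and 25.4% within 100 nt. GGAC was in 30.04% of windows on average, and in 54.3% with 100 nt to each side, while TGGAC was in 15.5%, in 20.5% with 100 nt to each side and in 8.35% at the middle of the peak. Wider windows hold more matches by construction, and the cause of the last value was not tested. From a single replicate, peaks over exons ranged from 23 to 50. Counts of genes with an overlapping pair cannot be given from a single list. The 2 libraries and 6 to 109 reads per summit limit the precision of every share.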
